A study of Homo sapiens with 6 samples.

Results

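The p53 family and its feedback regulators were examined in COV434 cells exposed to 4HC, the activated form of cyclophosphamide (CTX). The genes were taken by symbol for their known roles, when earlier results of these data were already known. They are TP63 and TP73, the paralogues of the gene for p53, and 7 genes whose products act on p53 or are made under its control, namely MDM2, MDM4, RCHY1, PPM1D, CCNG1, CCNG2 and TP53INP1. All 9 were present among the 16798 coding genes of the deposited data, with 46 of the 79213 transcripts. COV434 is an established human cell line derived from an ovarian tumour and used as a granulosa cell (GC) model. Bulk RNA sequencing covered 3 samples named as controls and 3 named as CTX, and the labels give 15 µM 4HC for 24 h as the treatment. The treatment text is the same for all 6 samples, so the control group was taken from the sample names, and a vehicle is not given in the sources used here.

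p53 is a transcription factor that accumulates after DNA damage, and alkylating agents such as 4HC damage DNA. Several of its target genes encode proteins that act back on it, which forms feedback loops. MDM2 is a ubiquitin ligase that marks p53 for degradation, MDM4 binds p53 and restrains its activity, and PPM1D encodes WIP1, a phosphatase that removes damage-induced phosphates from p53 and from the kinases upstream of it. TP63 and TP73 encode transcription factors that recognise the same DNA motif as p53.

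MDM2, the best known of these feedback genes, has a pair of promoters. The upstream one drives basal transcription, and p53 binds the downstream one. The promoter sequences are shown first because some MDM2 transcripts counted later are linked to these starts. Most MDM2 reads could not be placed at either start. They were taken from the RefSeq promoter table of GRCh38.p14, in which 8 of the 9 genes had a window of 250 bases before to 50 bases after a start site, in 17 windows, and TP53INP1 had none. Capitals mark stretches that match the p53 consensus motif, which consists of 2 adjacent copies of a 10-letter motif, on either strand, with at most 3 mismatches in 20 letters. Both MDM2 sequences lie on the plus strand of chromosome 12, the upstream one at chr12:68808052-68808171 and the downstream one at chr12:68808882-68809001.
MDM2 upstream promoter: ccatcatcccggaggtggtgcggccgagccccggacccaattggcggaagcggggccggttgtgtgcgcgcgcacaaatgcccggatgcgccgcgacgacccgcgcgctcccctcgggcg
MDM2 downstream promoter: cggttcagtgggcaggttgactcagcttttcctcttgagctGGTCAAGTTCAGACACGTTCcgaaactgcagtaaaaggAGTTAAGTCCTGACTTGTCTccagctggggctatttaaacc

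The downstream MDM2 window held 2 matches. The match at chr12:68808923-68808942 had 2 mismatches and ended 75 bases before the RefSeq start at 68809017, and the match at chr12:68808961-68808980 had 3 mismatches and ended 37 bases before it. The best stretch in the upstream windows had 5 mismatches. Over all 35116 windows in the table, 5.20% held a match of this quality, so a match is a description of the letters and not evidence of binding. Of the 8 genes with a window, only MDM2 and TP73 had a match, where the share over all genes with a window was 6.39%. The match in TP73 lay at chr1:3690596-3690615 on the plus strand, with 2 mismatches. It ended 57 bases before an internal start of TP73 that gives rise to the shorter form of the protein without the full activation domain. The stretch from chr1:3690572-3690651 is shown beside those of MDM2, since TP73, unlike MDM2, was measured at very low counts.
TP73 internal promoter: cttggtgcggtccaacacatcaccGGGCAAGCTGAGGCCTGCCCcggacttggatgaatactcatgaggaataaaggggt

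In the windows of PPM1D and CCNG2 the best stretch had 4 mismatches, and in those of CCNG1 it had 6. The absence of a match says only that these letters are not within the window.

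After 4HC treatment, 5 of the 9 genes were higher, 0 were lower, and 4 did not pass the test. The 5 were TP53INP1, MDM2, PPM1D, CCNG1 and CCNG2, in order of fold change. Genes were tested with edgeR's quasi-likelihood test on the expected counts, and a gene was called where its p-value, adjusted by the Benjamini-Hochberg method over the 12368 genes tested, was under 0.05. Without the adjustment, 6 of the 9 would be called as higher and 1, TP63, as lower, and DESeq2 called 5 as higher and 0 as lower. All 9 genes passed the filter on low counts. The background was high, because 36.4% of all genes tested were called, 19.2% as higher and 17.1% as lower. The median log2 fold change of the 9 genes was 0.40, against 0.005 over all genes tested, and the median absolute log2 fold change of all genes was 0.13. In 6 of the 9 genes all 3 4HC samples lay above all 3 controls, and in TP63 they lay below, where 23.4% and 21.9% of all genes were separated in these directions. Only TP53INP1 passed the fold change of 2 with an unadjusted p-value under 0.05 that the study used for DEGs, a threshold that 1.02% of genes passed as higher and 0.129% as lower. The labels do not say whether the samples of a group came from separate cultures, so the p-values measure the spread between these samples, which may be technical.

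**Figure D1:**
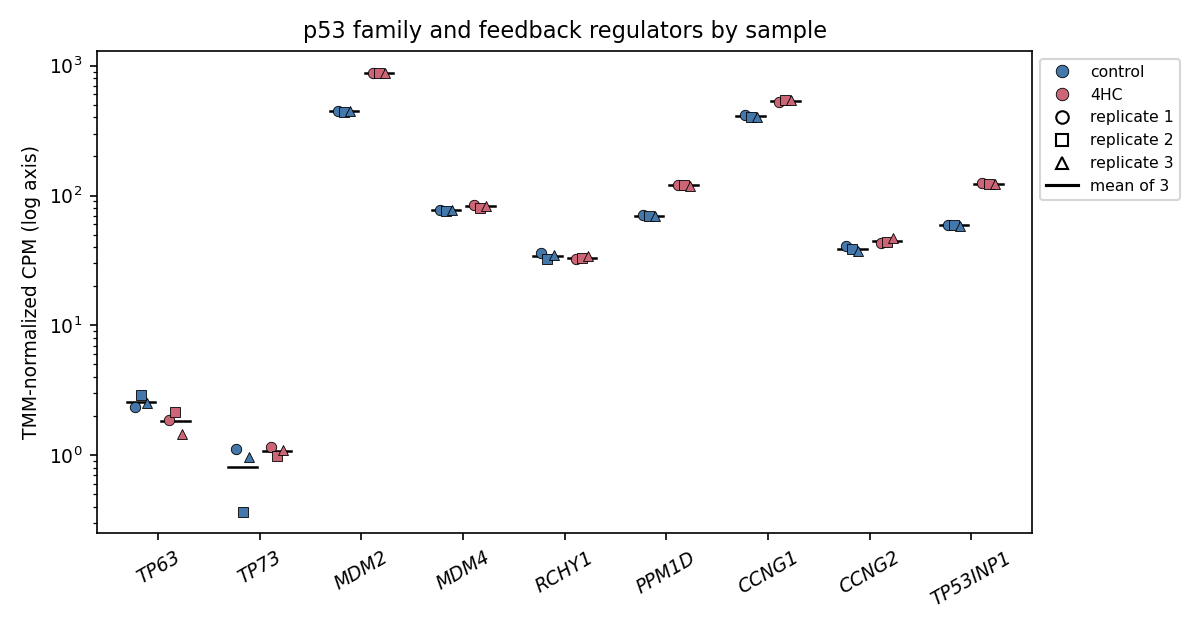
TMM-normalized CPM (counts scaled to a common library total, log axis) of the 9 genes in each of the 6 samples, with controls in blue, 4HC samples in red, a marker shape for each replicate number and a bar at the mean of 3. The groups are far apart for MDM2 (443 to 450 against 872 to 882), TP53INP1 and PPM1D, closer for CCNG1 and CCNG2, and interleaved for RCHY1 and TP73.

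TP63 and TP73 were both near the lower limit of measurement. TP63, known for its role in epithelia and in the quality control of oocytes, had 2.34, 2.89 and 2.53 CPM in the controls and 1.87, 2.16 and 1.47 CPM after 4HC. These levels rest on expected counts of 24.3 to 47.4 per sample. Every 4HC sample was below every control, with a gap of 0.184 CPM between the groups. The log2 fold change was -0.50 (95% confidence interval -0.92 to -0.07) and the adjusted p-value of 0.0600 did not pass the threshold. It passed when a minimum of 10 counts in every sample replaced the filter (adjusted p = 0.0416) and when 4HC replicate 2 was left out (log2 fold change -0.63, with an adjusted p-value of 0.0457).

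TP73 had 1.11, 0.369 and 0.965 CPM in the controls and 1.15, 0.987 and 1.10 CPM after 4HC, from 6 to 19 counts per sample. The groups overlapped, with control 2 as the lowest sample. Its log2 fold change of 0.40 had a confidence interval of -0.25 to 1.05 (adjusted p = 0.353), or 0.840-fold to 2.07-fold, and a difference was not detectable at this depth. Single controls moved the value, to a log2 fold change of 0.06 without control 2 and of 0.68 without control 1, and it was not called in either case. No transcript of TP73 was detected in every sample. The reads of controls 1, 2 and 3 were assigned to NM_001204188, NM_001204189 and NM_001204190 in turn, those of 4HC 1 and 4HC 2 to NM_001204192, and those of 4HC 3 mainly to NM_001204184. At 6 to 19 reads these assignments do not tell which start was used. TP63 had a single transcript in the table, NM_001329964, which took all of its reads.

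MDM2 changed with the smallest p-value among the 9 genes and the fourth smallest of all genes tested. It is annotated on chromosome 12 from 68808149 to 68850686. Its level was 444, 443 and 450 CPM in the controls and 872, 882 and 881 CPM after 4HC. Samples of a group were close to each other, whereas a gap of 422 CPM separated the groups. The log2 fold change of 0.98 (standard error 0.030, interval 0.92 to 1.04) is a 1.97-fold rise (adjusted p = 6.87e-32). By size of fold change MDM2 ranked 60 among the 10375 genes that reached a mean of 5 CPM in control or 4HC samples.

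MDM4, the close relative of MDM2 that lacks strong ligase activity of its own, had 77.2, 76.3 and 76.9 CPM in the controls and 84.5, 80.1 and 83.5 CPM after 4HC. The 4HC samples were all higher, by 2.94 CPM at the nearest. The log2 fold change of 0.11 (interval 0.02 to 0.20) had an adjusted p-value of 0.0504. MDM4 was called with library size as the only scaling (log2 fold change 0.13, adjusted p = 0.0189) and, at the same fold change, after removal of 4HC replicate 2 (adjusted p = 0.0481). RCHY1 encodes PIRH2, another ubiquitin ligase that acts on p53. It had 36.0, 32.4 and 34.8 CPM in the controls and 32.4, 33.1 and 34.2 CPM after 4HC, so the groups overlapped. Its log2 fold change was -0.05, and the interval of 0.889-fold to 1.05-fold bounds a change in either direction (adjusted p = 0.536). MDM2, MDM4 and RCHY1 thus had fold changes of 1.97, 1.08 and 0.965.

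Among the regulators of p53 phosphorylation and activity, PPM1D and TP53INP1 were both higher. PPM1D had 70.8, 69.7 and 69.9 CPM in the controls and 121, 121 and 119 CPM after 4HC. The gap between the groups was 48.2 CPM, many times the spread within them, with a log2 fold change of 0.78 (standard error 0.042, interval 0.69 to 0.86, adjusted p = 1.36e-21). TP53INP1 encodes a nuclear cofactor that promotes phosphorylation of p53 by HIPK2 and also takes part in autophagy. It had 59.1, 59.1 and 58.3 CPM in the controls and 125, 123 and 122 CPM after 4HC. The 2.10-fold rise was the largest of the 9 genes, with a log2 fold change of 1.07 (standard error 0.043, interval 0.98 to 1.16, adjusted p = 4.62e-27).

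The G cyclins CCNG1 and CCNG2 are atypical cyclins that recruit protein phosphatase 2A. CCNG1, a direct p53 target whose product helps to activate MDM2, had 414, 400 and 404 CPM in the controls and 529, 543 and 540 CPM after 4HC. Its log2 fold change of 0.40 (standard error 0.031, interval 0.34 to 0.47, adjusted p = 1.40e-15) is a 1.32-fold rise. CCNG2, which is known as a target of FOXO factors and accompanies cell cycle arrest, had 40.7, 38.6 and 37.2 CPM in the controls and 43.0, 43.5 and 47.0 CPM after 4HC. The groups did not overlap, with 2.36 CPM between the nearest samples, and the log2 fold change was 0.20 (standard error 0.056, interval 0.08 to 0.31, adjusted p = 0.00412). The intervals of CCNG1 and CCNG2 lay apart, but the difference between the changes of these genes was not tested.

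**Figure D2:**
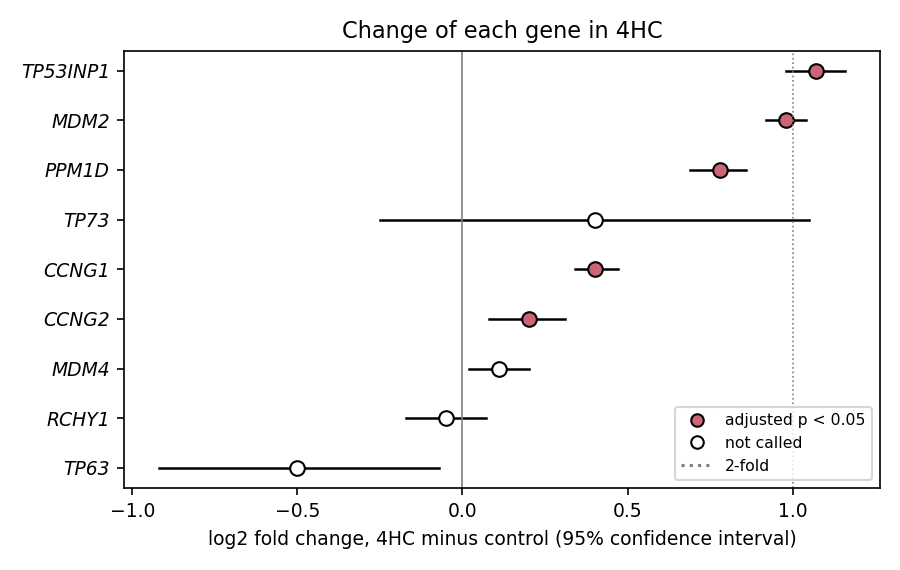
Log2 fold change of each gene, 4HC minus control, with its 95% confidence interval from edgeR (horizontal lines); filled points passed an adjusted p-value of 0.05 and the dotted line marks a fold change of 2. The intervals of TP53INP1 (0.98 to 1.16) and MDM2 (0.92 to 1.04) include the dotted line, and those of TP63 and TP73 are the widest.

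Levels of different genes were compared with the deposited TPM, which accounts for transcript length. In the controls CCNG1 was the most abundant with 295 ± 6.55 TPM (SD, n = 3), followed by MDM2 with 98.9 ± 1.36 TPM. PPM1D (24.5 ± 0.315) and CCNG2 (24.2 ± 0.885 TPM) were next and overlapped. TP53INP1 followed with 17.2 ± 0.0839 TPM, and RCHY1 (13.1 ± 0.752) and MDM4 (12.7 ± 0.122 TPM) again overlapped. TP63 and TP73 were last with 0.817 ± 0.0833 and 0.280 ± 0.132 TPM.

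After 4HC the order changed in the middle. CCNG1 (388 ± 3.16 TPM) and MDM2 (191 ± 0.489 TPM) stayed at the top. PPM1D reached 41.7 ± 0.448 TPM, and TP53INP1, at 36.1 ± 0.641 TPM, now lay above CCNG2 at 28.3 ± 1.38 TPM without overlap. MDM4 (13.6 ± 0.627) and RCHY1 (12.6 ± 0.323 TPM) overlapped as before, and TP63 and TP73 were last with 0.573 ± 0.10 and 0.360 ± 0.0300 TPM. The TPM of MDM2 relative to that of MDM4 was 7.68, 7.75 and 7.86 in the controls and 13.4, 14.8 and 14 after 4HC. The ratio of CCNG1 to CCNG2 moved less, from 12.0, 12.1 and 12.5 to 14, 14.2 and 13.

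At the level of single transcripts, 33 of the 46 were tested, 5 were higher after 4HC and 0 were lower. Over all 42216 transcripts tested, 0.706% were called as higher and 0.587% as lower. The groups did not overlap, in either direction, in 20.0% of them, so separation alone is common. Without adjustment 9 of the 33 would be higher and 1 lower, and DESeq2 called 8 as higher and 0 as lower. The reads of a gene are divided among its transcripts by the authors' counting program, so these counts are less certain than those of genes, and 23 of the 46 transcripts were at 0 in at least 1 sample. The 5 transcripts were 2 of MDM2 and 1 each of PPM1D, CCNG1 and TP53INP1. PPM1D had a single transcript in the table, NM_003620, with 1149, 1132 and 1158 expected counts in the controls and 1999, 1957 and 1945 after 4HC (log2 fold change 0.78, adjusted p = 7.56e-04).

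MDM2 had 8 transcripts, and NM_001367990 took most of the reads. It had 5053, 4708 and 4863 counts in the controls and 10424, 10681 and 10727 after 4HC, a log2 fold change of 1.12 (adjusted p = 7.56e-04). Its share of MDM2 reads was 66.9% ± 2.85 in the controls and 73.8% ± 1.43 after 4HC. NM_001145337 rose most, from 238, 213 and 249 counts to 1319, 1096 and 1129. Its log2 fold change was 2.34 (interval 2.11 to 2.57, adjusted p = 0.00109), and its share went from 3.20% ± 0.209 to 8.21% ± 0.798. NM_002392, in contrast, had 1290, 1391 and 1723 counts in the controls and 1772, 1375 and 1636 after 4HC. These values overlapped (log2 fold change 0.12, interval -0.21 to 0.44), and its share went from 20.1% ± 2.68 to 11.1% ± 1.35.

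GENCODE release 29 (GRCh38) links NM_002392 to a start at 68808176, beside the upstream promoter printed above, and NM_001145337 to a start at 68809002, directly after the downstream sequence with the 2 p53 motif matches. The count of NM_001145337 relative to that of NM_002392 was 0.184, 0.153 and 0.144 in the controls and 0.744, 0.797 and 0.690 after 4HC, so that every 4HC sample was above every control. The less abundant linked transcripts were then added, with starts divided at the midpoint of the widest gap between RefSeq starts. NM_001145339 (start at 68808464) was classed as upstream, and NM_001278462 and NM_001145340 (68809212) as downstream. Their starts are not directly beside the printed sequences. The upstream starts took 19.4%, 20.8% and 23.1% of MDM2 reads in the controls and 13%, 10.6% and 13% after 4HC. The downstream starts took 4.09%, 4.21% and 4.30% in the controls and 9.47%, 8.61% and 8.72% after 4HC. In reads, the upstream starts had 1540 ± 167 and 1752 ± 202 counts, and the downstream starts had 306 ± 13.4 and 1285 ± 73.2 counts. NM_001367990 and 2 other transcripts had no link to a start, and together they took 74.7% ± 1.96 and 78.9% ± 1.68 of the reads, so most MDM2 reads could not be placed at either start.

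A usage test (edgeR's diffSpliceDGE) asked whether a transcript changed differently from the rest of its gene. It called 2 of the 31 transcripts of the 9 genes that it could include, both of MDM2, against 0.0673% of all 38640 transcripts. NM_001145337 had a coefficient of 0.94 (adjusted p = 0.00836) and NM_002392 one of -0.60 (adjusted p = 0.0248). These coefficients are on the natural log scale, unlike the log2 fold changes given above. These calls depended on all samples being used. NM_002392 was not called when any 1 of the 6 samples was left out (adjusted p between 0.0726 and 0.293), and NM_001145337 was not called without control 1 (0.0729), control 2 (0.103) or 4HC 1 (0.152). The coefficients kept their sign, between 0.88 and 0.97 for NM_001145337 and between -0.65 and -0.52 for NM_002392.

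**Figure D3:**
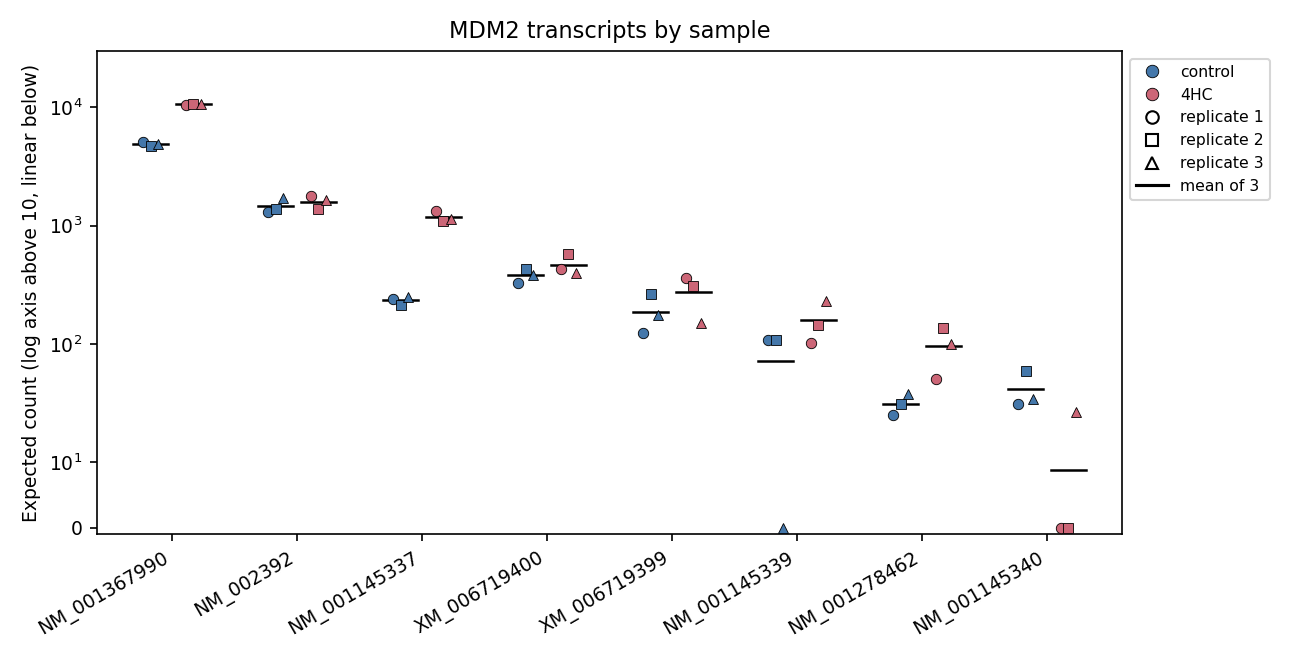
Expected counts of the 8 MDM2 transcripts in each sample (log axis above 10, linear below), with controls in blue and 4HC samples in red and a bar at the mean of 3. On the log axis NM_001145337 is separated by the widest margin (213 to 249 against 1096 to 1319), and NM_002392 overlaps between the groups. In addition, 2 of the less abundant transcripts are at 0 in some samples.

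Of the other MDM2 transcripts, XM_006719400 had 380 ± 50.3 counts in the controls and 466 ± 92.7 after 4HC, and XM_006719399 had 187 ± 70.6 and 272 ± 108. NM_001145339 (0 to 228 counts) and NM_001278462 (25.0 to 136 counts) were less abundant. NM_001145340, which is outside the rule for named transcripts, had 31.2, 59.0 and 34.2 counts in the controls and 0, 0 and 26.4 after 4HC, lower without overlap, although it is linked to a downstream start. Its log2 fold change of -2.24 (interval -6.76 to 2.29) was not called (adjusted p = 0.876), and none of these 5 passed the test.

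TP53INP1 has a long and a short protein isoform. Most of its reads were divided between NM_001135733 and NM_033285, linked to nearby starts on chromosome 8, at 94949366 and 94949411. NM_001135733 had 551, 562 and 528 counts in the controls and 1508, 1202 and 1271 after 4HC, a log2 fold change of 1.28 (interval 1.06 to 1.5, adjusted p = 0.00590). This call was lost without control 1 (adjusted p = 0.0573) and without control 3 (0.0559). NM_033285 had 408, 361 and 438 counts in the controls and 571, 458 and 558 after 4HC, also without overlap, but its log2 fold change of 0.39 did not pass (adjusted p = 0.225). The share of NM_001135733 was 56.9% ± 1.98 in the controls and 65.5% ± 6.29 after 4HC, and its usage was not called (adjusted p = 1.000). The remaining transcript, XM_011517386, had no link to a start. It was at 0 in control 1 and 4HC 1 and at 331 counts in 4HC 2.

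The reads of CCNG1 fell almost entirely on NM_004060, with 95.1% ± 0.212 of them in the controls and 96.4% ± 0.943 after 4HC. It had 6400, 6168 and 6360 counts in the controls and 8469, 8563 and 8417 after 4HC (log2 fold change 0.43, adjusted p = 0.00352). NM_001364018, NM_001364020 and NM_199246 each took less than 3% of CCNG1 reads and did not pass the test. In CCNG2, XM_011532398 had 450, 431 and 429 counts in the controls and 509, 506 and 559 after 4HC (log2 fold change 0.26, adjusted p = 0.174), while NM_004354 had 184 ± 14.1 and 185 ± 11.2 counts (log2 fold change -0.00, adjusted p = 1.000). The difference of CCNG2 between the groups thus appeared in the counts of XM_011532398, although this transcript alone was not called.

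MDM4 had 9 transcripts, of which 6 were at 0 in at least 1 sample. NM_002393 had 623, 821 and 788 counts in the controls and 464, 661 and 446 after 4HC, and the groups overlapped (log2 fold change -0.51, adjusted p = 0.402). NM_001278516 had 269, 194 and 374 counts in the controls and 541, 383 and 468 after 4HC, without overlap (log2 fold change 0.73, adjusted p = 0.350). The division of reads varied widely between replicates, with NM_001278517 at 0 in 3 samples and at 150 to 183 counts in the other 3. NM_001278519 was at 0 in 2 controls and at 104 to 126 counts in the 4HC samples. NM_001204171 and NM_001278518 were also at 0 in some samples. In RCHY1, NM_015436 took 87.8% ± 3.27 and 88.1% ± 1.25 of the reads and did not differ beyond its spread (log2 fold change -0.05, adjusted p = 0.985).

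The wider pathway was described with 3 lists of genes outside the 9. Of 55 genes that encode modifiers of p53, such as its kinases, acetyltransferases and ubiquitin ligases, 6 were higher (10.9%, against 19.2% of all genes) and 14 were lower (25.5%, against 17.1%). Their median log2 fold change was -0.03. DTL, an adaptor of the CUL4 ubiquitin ligase, rose from 78.8 ± 2.21 to 114 ± 4.55 CPM (log2 fold change 0.53, adjusted p = 6.34e-15). KAT2B, an acetyltransferase, and MTBP, which encodes an MDM2-binding protein, rose with log2 fold changes of 0.43 (adjusted p = 9.58e-08) and 0.40 (adjusted p = 1.03e-05).

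Of 24 genes for binding partners of the products of the 9 genes, 3 were higher (12.5%, against 19.2% of all genes). A further 10 were lower (41.7%, against 17.1%), and the median log2 fold change was -0.08. Among the 3 were PRKCD, a protein kinase C (log2 fold change 0.40, adjusted p = 5.22e-04), and AKT1, a kinase that phosphorylates MDM2 (0.14, adjusted p = 0.00412). Without control replicate 3 only 1 gene of this list was higher. YWHAG, a 14-3-3 protein that binds MDM4, fell from 346 ± 9.74 to 278 ± 4.52 CPM (log2 fold change -0.32, adjusted p = 3.80e-11). PPP2R5E, a regulatory subunit of protein phosphatase 2A, the enzyme bound by cyclin G, fell with a log2 fold change of -0.26 (adjusted p = 1.75e-06).

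Direct p53 target genes outside the 9 moved mostly upwards. Of the 58 listed, 57 were in the table and 51 passed the filter on low counts. Of these 51, 46 were higher (90.2%, against 19.2% of all genes), 1 was lower and 4 were not called. Their median log2 fold change was 0.67. GDF15, a stress cytokine, rose from 6.71 ± 1.11 to 29.2 ± 1.34 CPM (log2 fold change 2.12, adjusted p = 3.16e-26), CDKN1A, the CDK inhibitor p21, from 225 ± 7.25 to 783 ± 18.0 CPM (1.80, adjusted p = 2.56e-42), and TP53I3, an oxidoreductase, from 65.0 ± 1.34 to 193 ± 4.99 CPM (1.57, adjusted p = 2.95e-35). The lower gene was KITLG, the KIT ligand, with a log2 fold change of -0.24 (adjusted p = 8.12e-06). AKT1 and KITLG were named after their values were seen.

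**Figure D4:**
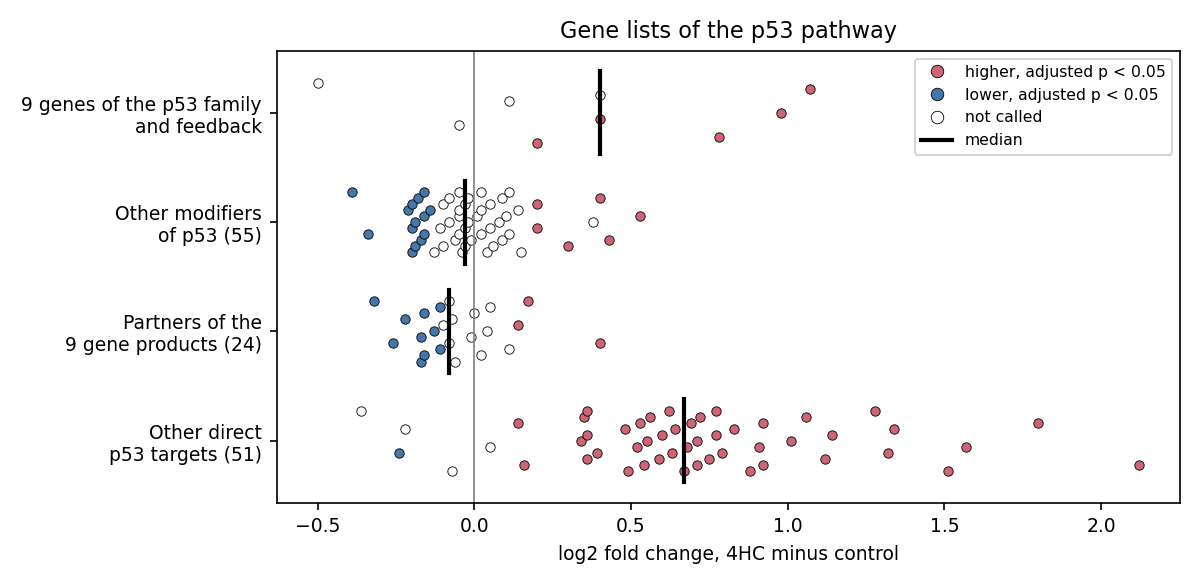
Log2 fold change of every tested gene in the 4 lists, 4HC minus control, with genes called higher in red, lower in blue and not called in white; the vertical position within a row has no meaning and the bar marks the median. The medians are 0.40 for the 9 genes, -0.03 for the other modifiers of p53, -0.08 for the partners and 0.67 for the other direct targets.

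The genes whose CPM over the 6 samples was most like that of MDM2, by Pearson's r of log2 CPM among 10374 other genes past the same 5 CPM level, were TYMS (r = 0.9999), SLC52A1 (0.9997), TP53I3 (0.9997), SESN1 (0.9994) and PCNA (0.9994). PPM1D was next, at rank 6 (0.9994), TP53INP1 was at rank 10 (0.9991) and CCNG1 at rank 54 (0.9959). MDM4 (0.9099), CCNG2 (0.8715) and RCHY1 (-0.4414) were at ranks 1310, 1668 and 6509. The samples of a group share a treatment and fall into 2 separate clusters, and 151 genes had an r above 0.99, so a high r here says that the spread within groups was small beside the difference between them. It says nothing of the size of that difference, which was 0.56 on the log2 scale for TYMS and 3.58 for SLC52A1, against 0.98 for MDM2.

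Sequencing depth was even, with a total of 16133786 to 16702316 expected counts per sample, and edgeR estimated a biological coefficient of variation of 0.0277. No pair of replicates was as alike as sampling noise alone would allow (chi-square per gene 1.70 to 2.47). The GC label was checked with 14 markers, of which 13 were in the table. WT1, NR5A2 and HSD17B1 were above 5 CPM in all samples and AMH was at 3.77 to 6.48 CPM, but 8 markers were under 1 CPM, and the defining genes FOXL2, FSHR, CYP19A1, NR5A1, GATA4 and STAR had at most 3 counts in any sample. The summed level of the GC markers was 611 to 635 CPM in the controls and 495 to 509 CPM after 4HC. Nearly all of this sum came from NR5A2 and WT1, and its part in the results was not tested. Theca markers summed to at most 0.489 CPM and epithelial markers to at most 1.10 CPM. Oocyte markers summed to 13.8 to 17.6 CPM, nearly all from ZP3, and stromal markers to 112 to 122 CPM, mainly from DCN and LUM, with overlapping ranges in control and 4HC. SMARCA2, a chromatin remodelling ATPase, had at most 4 counts per sample, and its counterpart SMARCA4 was at 21.2 to 28.2 CPM.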

How the data were processed

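RNA of 3 control and 3 4HC samples of COV434 cells was sequenced, and groups were taken from the sample names. The authors filtered reads with SOAPnuke and used the Dr. Tom system, and the submitters' processing notes name HISAT2, Bowtie2, RSEM 1.3.1 and DESeq2 1.4.5 and the build GRCh38.p13. The authors deposited an expected count per gene and transcript, without normalization, of which 85.5% were whole numbers for genes. The deposited TPM and FPKM values were scaled by the authors to length and depth. The deposited columns of the authors' own comparison (log2 fold changes, p-values and q-values) were not used, and a second gene table repeated the first 27 columns. Strand-specific counting is not stated in the sources used here.

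The test was edgeR 4.0.16 under R 4.3.3, applied to rounded expected counts (TMM, filterByExpr, quasi-likelihood, Benjamini-Hochberg over all genes or all transcripts), with condition as the only term, after a test on simulated data. The rule for named genes took all 9 genes, their transcripts with a mean of at least 50 counts in either group or a call, up to 3 called genes with the largest change per list, and the 5 genes most like MDM2. The 9 genes and the lists were chosen with earlier results of these data known. A gene of the list of partners is not reported here by name. Alternatives were size factors of DESeq2, DESeq2 1.42.0 itself, scaling by library size alone, no filter, at least 10 counts in every sample, a block for the replicate number, limma 3.58.1 on log2 of FPKM or TPM plus 1 or 0.1, fold change of at least 2 with p under 0.05, and removal of each sample. Promoters were scanned and figures drawn in Python 3.11.15 (pandas 2.3.3, matplotlib 3.10.9).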

Additional observations from a re-analysis of the deposited data

How the results depend on the processing

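MDM2, TP53INP1, PPM1D, CCNG1 and CCNG2 were higher after 4HC under all 16 alternatives run for each of them, with log2 fold changes of 0.94 to 1.00 for MDM2 and 0.16 to 0.25 for CCNG2, whose adjusted p reached 0.0423. Of 379 alternative values computed, 341 were rated the same as the main result. For a fold change or usage coefficient this means the same direction and side of the threshold, and none of these reversed. For a count of calls it means only a similar count. At the study's DEG thresholds (2-fold, unadjusted p-value under 0.05), 1 of the 9 genes was higher in the edgeR fit. Over all genes 126 were higher and 16 lower in this fit. The study, which used DESeq2, reported far more DEGs in both directions, and the cause of the gap was not tested. TP63 was called as lower with at least 10 counts in every sample (-0.50), which made 1 gene lower. Leaving out 1 sample gave 0 to 1 lower genes, -0.63 to -0.36 for TP63 and 0.09 to 0.13 for MDM4. With library size as the only scaling MDM4 was called (0.13) and 10 modifiers of p53 were higher. The partners of the 9 gene products had 1 to 3 higher genes when a sample was left out. DESeq2 called 8 of the transcripts as higher. The cause of these shifts was not tested. TP73 gave no value with at least 10 counts in every sample.

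With the replicate number as a block, 0 transcripts of the 9 genes were called as higher (10 at an unadjusted p-value under 0.05, adjusted p 0.0859 to 0.110 for the 5) and 0 in the usage test (4 unadjusted, adjusted p of 0.281 and 0.381 for the 2), and leaving out 1 sample gave 0 to 1 usage calls. Same-numbered samples deviated with correlations of -0.0738, -0.00476 and 0.131, and 1 of the 3 4HC samples correlated best with its own number, so the numbers were not taken as pairs. The block changed no call of the 9 genes. Depth limited TP63 and TP73, with 6 to 47.4 counts per sample. Outlying samples were not tested for in groups of 3, and an exact permutation test of 3 against 3 cannot give a p-value below 0.1.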

Other observations

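The genes in this paragraph were named after their values were seen. Among the 14 lower genes that encode modifiers of p53, GNL3, which encodes nucleostemin, had a log2 fold change of -0.39 (adjusted p = 1.53e-12, edgeR's quasi-likelihood test), and DYRK2, a kinase of p53, one of -0.34 (adjusted p = 1.08e-05). The other 12 had log2 fold changes between -0.21 and -0.14. USP7, the deubiquitinase of MDM2 and p53 that was on the lists of modifiers and of partners, had a log2 fold change of -0.17 (adjusted p = 7.60e-05). Of the modifiers that were higher, CHEK2, a DNA damage kinase, had a log2 fold change of 0.30 (adjusted p = 1.73e-05) and CDKN2A, whose locus encodes the MDM2 inhibitor ARF, one of 0.20 (adjusted p = 0.00204).

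The deposited KEGG annotation placed 7 of the 9 genes in the p53 signaling pathway category, and TP63 and TP53INP1 were outside it.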
